A study of Mus musculus with 43 samples.

Results

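The comparison set JAK2V617F donor cells against wild-type host cells sorted from the marrow of the same mice. It used 14 of the 43 libraries of the series: 7 of CD45.2 donor cells and 7 of CD45.1 host cells, matched by the animal number in the sample titles (mice N005, N014, N032, N203, N204, N269 and N279). Each mouse, a wild-type CD45.1 animal that had not been conditioned, had received 5000000 whole-marrow cells carrying JAK2V617F from a CD45.2 donor matched for age and sex. Marrow was taken about 7 months later, red cells were lysed, and cells were sorted by CD45 allele without selecting a lineage. Host cells carried no mutation but had shared the marrow with the mutant clone. No wild-type CD45.2 donor cells were among the libraries. The mutation, the transplantation and the CD45.2 background therefore cannot be told apart in any difference below. CD45.1 cells of 8 untransplanted wild-type mice (4 male, 4 female) give a further level beside the pairs and were in none of the tests. The construct that carries JAK2V617F, the number of donor animals and the ages are not given in the sources used here.

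Library totals of gene counts, rounded, were 16340000 to 19680000 in donor cells, 16300000 to 19050000 in host cells and 15710000 to 18560000 in controls. There were 4 male and 3 female pairs, and the final blood chimerism of these mice, whose unit the labels do not give, ran from 0.63 to 5.99. The donor library of N204 is labelled donor in its title and recipient-derived in another field. Its Car1 level of 48.3 CPM (counts scaled by TMM to a library of 1000000) and its Cd3e level of 0.337 CPM lay with the other donor libraries, where Car1 was 44.9 to 127 CPM and Cd3e 0 to 0.597 CPM. In host cells Car1 was 1.44 to 3.67 CPM and Cd3e 6.28 to 14.3 CPM. The Y-linked genes Kdm5d and Uty were at 0 CPM in all 6 libraries of the female mice and present in all 8 libraries of the male mice, in donor and host cells alike. Both sorted fractions held markers of several lineages, so the CD45 label names an origin and not a cell type.

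JAK2 is the kinase that carries signals from the receptors for erythropoietin and several myeloid cytokines. The V617F change leaves it active without a cytokine, and it is the best known driver of polycythaemia vera and related myeloproliferative neoplasms. Erythropoietin signalling acts on young red-cell precursors. There GATA1 and KLF1 switch on the genes of the red-cell membrane, haem synthesis and, later, haemoglobin.

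Donor cells had more RNA of many red-cell regulators, membrane proteins and enzymes, of neutrophil primary granules, basophils and the cell cycle, less globin RNA, and far less RNA of B cells, T cells, plasma cells and the complement C1q genes of macrophages than the host cells beside them. Of 13662 genes tested with edgeR and the mouse as a block, 4620 passed at a Benjamini-Hochberg adjusted p below 0.05, which is 33.8%. A gene was tested if it reached 0.553 CPM in at least 7 libraries, which 660 genes did in host cells alone and 230 in donor cells alone. In donor cells 2088 were higher (15.3%) and 2532 lower (18.5%). Differences were mostly small: 73 genes were at least 2-fold higher and 641 at least 2-fold lower, while 1438 of the higher and 840 of the lower differed by less than 1.2-fold. Many counts below shrink in a fit without the mouse as a block (503 higher, 1289 lower). Many also shrink in a test that the difference exceeds 1.2-fold (161 higher, 1035 lower). Both are given for a list where they move its count by over 1.5 times. The direction was the same in all 7 mice for 3179 of the 4620 genes. This count is partly fixed by the choice of genes, which rested on the same pairs. Among the genes that passed, donor and host ranges did not overlap for 144 of the 2088 higher and 544 of the 2532 lower. In sorted bulk cells, fewer cells of a type and less RNA per cell cannot be told apart. The median log2 fold change over all genes tested was -0.0028, the level against which each list below is set. The plot of list members shows these lists side by side.

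**Figure D1:**
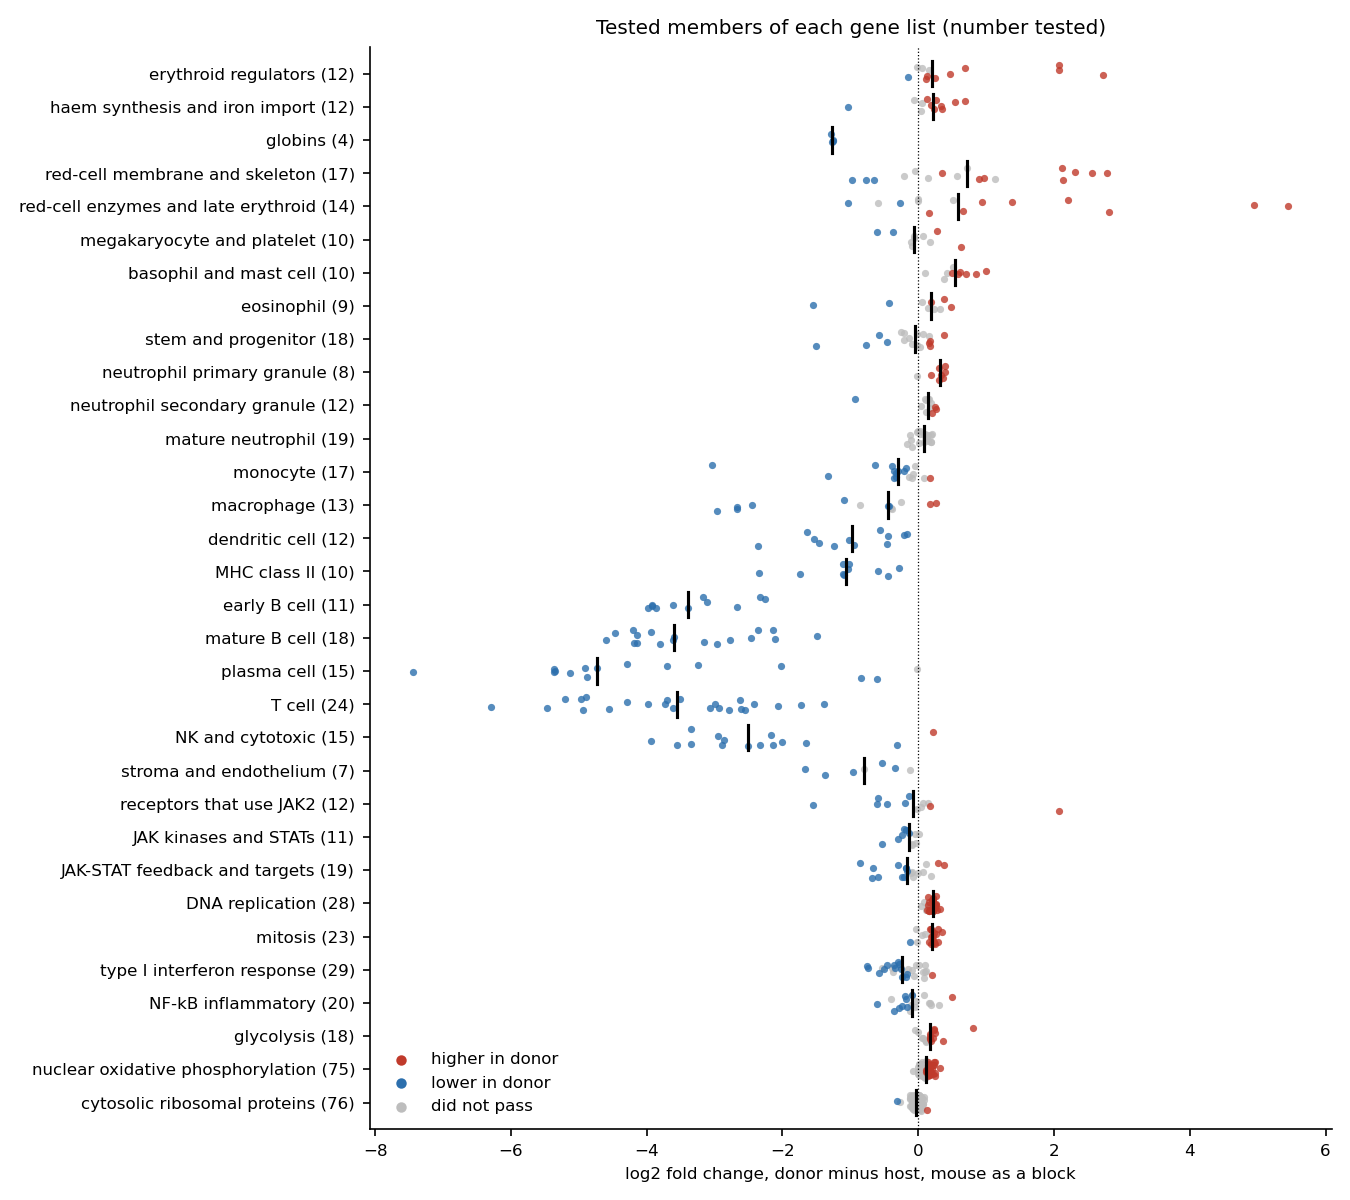
Log2 fold change of donor against host cells (x axis) for the tested members of 32 gene lists (y axis, number tested in brackets), from edgeR with the mouse as a block. Each point is a gene, red if higher and blue if lower in donor cells at an adjusted p below 0.05, grey if it did not pass, and black bars are list medians. The lymphoid lists lie far to the left, with medians down to -4.73 in plasma cells, and single red-cell genes reach 5.45.

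Regulators of red-cell formation were higher in donor cells. Of 12 listed and tested, 8 passed as higher and 1 as lower, with a median log2 fold change of 0.20, and 2 met the minimum count in donor cells alone. Gata1, the transcription factor that defines the lineage, stood at 3.89 to 12.2 CPM in donor libraries (median 6.57) and 1.2 to 2.24 CPM in host libraries (median 1.67). The ranges did not overlap, and every mouse had between 2.5 and 6.44 times more in its donor cells (log2 2.07 ± 0.16 SE, edgeR adjusted p = 4.32e-08). Klf1, the factor that activates adult globin and membrane genes, was 2.92 to 10.4 CPM in donor and 0.177 to 1.99 CPM in host cells, again without overlap (log2 2.72 ± 0.48, adjusted p = 0.00398). Epor, the erythropoietin receptor that signals through JAK2, was 1.37 to 6.66 CPM in donor cells and 0.296 to 1.47 CPM in host cells (log2 2.07 ± 0.37, adjusted p = 0.00163). Its ranges overlapped because the donor library of N269 (1.37 CPM) lay below the host library of N032, the highest of the 7. In N032 the donor library exceeded its own host by only 1.16-fold. Gfi1b, Tal1 and the transferrin receptor gene Tfrc, which brings in iron, were higher by log2 0.68, 0.47 and 0.25. Ldb1, which bridges the complexes of GATA1 and TAL1, was the member that was lower (-0.14). Without N014, 5 members passed as higher in place of 8, and 4 did without the block or above 1.2-fold. In those last 2 fits 0 passed as lower.

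The motif of GATA1 is the bases GATA with A or T before them and A or G after them. Of 12 genes in the red-cell lists that were higher by at least log2 2, 10 had entries in RefSeq's promoter table (GRCm38.p6, 250 bases before to 50 after a start, 11 windows). Its 4 spellings were searched on both strands, and one or more was in 7 of these 11 windows and in 29.8% of all 32851 windows. In the 100 bases just before the start it was in 6 of the 11 windows, against 10.4% of all windows. Those 6 stretches are shown because each lies just before the start of one of these genes and holds the motif. They read 5′ to 3′ along the gene and end at the base before the start, with the motif or its reverse complement in capitals. A match is a description of the letters and not evidence of binding.
Pklr, chr3:89136042-89136141, plus strand: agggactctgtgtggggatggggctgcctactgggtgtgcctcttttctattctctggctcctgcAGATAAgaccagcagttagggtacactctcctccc
Ces2g, chr8:104961618-104961717, plus strand: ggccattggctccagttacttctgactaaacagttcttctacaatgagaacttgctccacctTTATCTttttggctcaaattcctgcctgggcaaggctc
Klf1, chr8:84901882-84901981, plus strand: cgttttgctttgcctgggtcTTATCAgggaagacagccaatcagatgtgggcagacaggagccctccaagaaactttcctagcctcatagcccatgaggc
Ermap, chr4:119189996-119190095, minus strand: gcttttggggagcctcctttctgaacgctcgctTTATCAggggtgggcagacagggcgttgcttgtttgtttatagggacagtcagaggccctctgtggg
Rhag, chr17:40811049-40811148, plus strand: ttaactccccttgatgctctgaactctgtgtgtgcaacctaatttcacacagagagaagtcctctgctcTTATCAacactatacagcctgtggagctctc
Epor, chr9:21963577-21963676, minus strand: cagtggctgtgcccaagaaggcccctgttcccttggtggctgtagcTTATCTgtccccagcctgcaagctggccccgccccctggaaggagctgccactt

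In the list of red-cell enzymes and late erythroid genes, 8 of 14 were higher and 2 lower, with a median of 0.59, and 2 met the minimum count in donor cells alone. Car1, a carbonic anhydrase of red cells, was 44.9 to 127 CPM in donor libraries (median 93.6) and 1.44 to 3.67 CPM in host libraries (median 2.66). Donor cells held between 18.4 times (N032) and 50.6 times (N014) the level of their own host (log2 4.95 ± 0.15 SE, edgeR adjusted p = 1.12e-08). Controls lay between the groups at 8.44 to 19.8 CPM. Pklr, the red-cell pyruvate kinase whose promoter heads the stretches above, was 3.83 to 16.1 CPM in donor and 0.0523 to 0.44 CPM in host cells. This was the largest positive log2 fold change of any gene tested (5.45 ± 0.29, edgeR adjusted p = 1.03e-08). Controls lay between the groups here too, at 0.487 to 1.75 CPM, above every host library. The host level is near the lower end of what was read, 24 counts over 7 libraries against 1118 in donor cells. Ces2g, Tspo2 and Slc14a1, the urea transporter of red cells, were higher by log2 2.80, 2.21 and 0.94. The lower members were Trim10 (-1.03) and Bpgm (-0.26), both named after their values were seen. Only 1 member passed as lower without N005, N014, N032 or N204, and above 1.2-fold, while 0 did without the block.

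The membrane and skeleton list was split. Of 17 tested members 8 were higher, 3 lower and 6 did not pass, with a median of 0.72, and Tmod1 was too low to test. The minimum count was met in donor cells alone by 4 members. Add2 (adducin, 2.78), Ermap (2.56), the water channel gene Aqp1 (2.30), the anchor protein gene Ank1 (2.13) and Rhag (2.11) were higher. Aqp1 was 26.1 to 64.8 CPM in donor and 4.61 to 11.9 CPM in host cells, without overlap. Ank1 was 8.19 to 21.8 CPM in donor and 1.14 to 9.00 CPM in host cells, where N032 alone reached into the donor range (adjusted p = 0.0106). The 3 lower members, named after their values were seen, were the anion exchanger Slc4a1 (-0.97), the band 4.2 gene Epb42 (-0.78) and Dmtn (-0.65). Without the block none of the 3 lower calls was made, and above 1.2-fold 1 was.

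The 4 tested adult globin genes were all lower in donor cells, opposite to most of the genes that passed in the other red-cell lists. Hbb-bs, a beta-globin gene, was 9.09 to 79.1 CPM in donor libraries (median 20.0) and 23.5 to 95.5 CPM in host libraries (median 51.3). The groups overlapped widely, yet each donor library was below its own host, at 0.308 to 0.828 of its level (log2 -1.28 ± 0.20 SE, edgeR adjusted p = 0.00289). N032 was highest in both fractions. Hba-a1 (-1.25), Hba-a2 (-1.29) and Hbb-bt (-1.26) were lower by similar amounts, although the separate values of such near-identical genes are uncertain. Alas2, the erythroid first enzyme of haem synthesis, was lower too (-1.04, adjusted p = 0.00164), in 7 of 7 mice. Of the 12 haem and iron-import genes, of which Alas2 was the only lower one, 8 were higher, among them Cpox (0.69), Alad (0.55) and Fech (0.26). Without the mouse as a block no globin gene passed, with adjusted p of 0.128 to 0.189, and neither did Alas2 (0.351), while 5 haem genes passed as higher. Above 1.2-fold 2 haem genes were higher. Summed globin RNA was 19 to 149 CPM in donor and 46.4 to 186 CPM in host libraries. These values cover only cells caught by the CD45 sort, and red-cell precursors outside it were not read. Red cells had been lysed before sorting, and how complete the lysis was in each fraction was not tested.

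**Figure D2:**
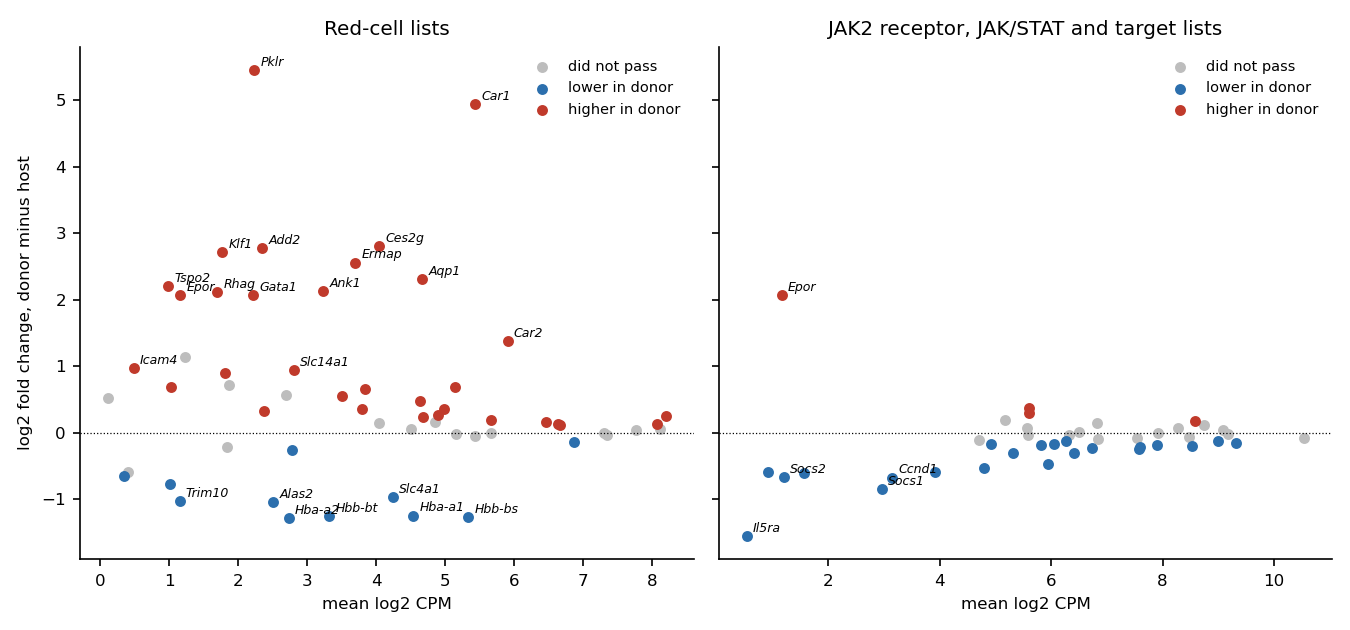
Log2 fold change of donor against host cells (y axis) by mean log2 CPM (x axis) for genes of the 5 red-cell lists (left) and of the 3 lists on JAK2 receptors, kinases and targets (right). Points are genes, red if higher, blue if lower and grey if not passed in edgeR with the mouse as a block. Car1 and Pklr lie near 5 while the globins lie near -1.3, and on the right only Epor exceeds 2.

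Under the naming rule, 4 of the 12 highest genes were outside the red-cell lists. Atp1b2, a sodium-pump subunit, was 7.02 to 23.4 CPM in donor and 0.495 to 1.28 CPM in host cells (log2 3.67 ± 0.17 SE, edgeR adjusted p = 7.89e-10). Myh10, a non-muscle myosin heavy chain, was 2.30 to 27.1 CPM in donor and 0.346 to 1.28 CPM in host cells (3.46), with N279 far above the other donor libraries. Abcb4, a phospholipid transporter (2.19), and the tight-junction gene Tjp1 (2.23) were higher in every pair as well. Tjp1 was the one of these 4 whose donor and host ranges overlapped. Controls were at 1.03 to 3.01 CPM for Atp1b2 and 1.21 to 2.52 CPM for Myh10. They were at 2.76 to 6.77 CPM for Abcb4 and 0.319 to 2.42 CPM for Tjp1.

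**Figure D3:**
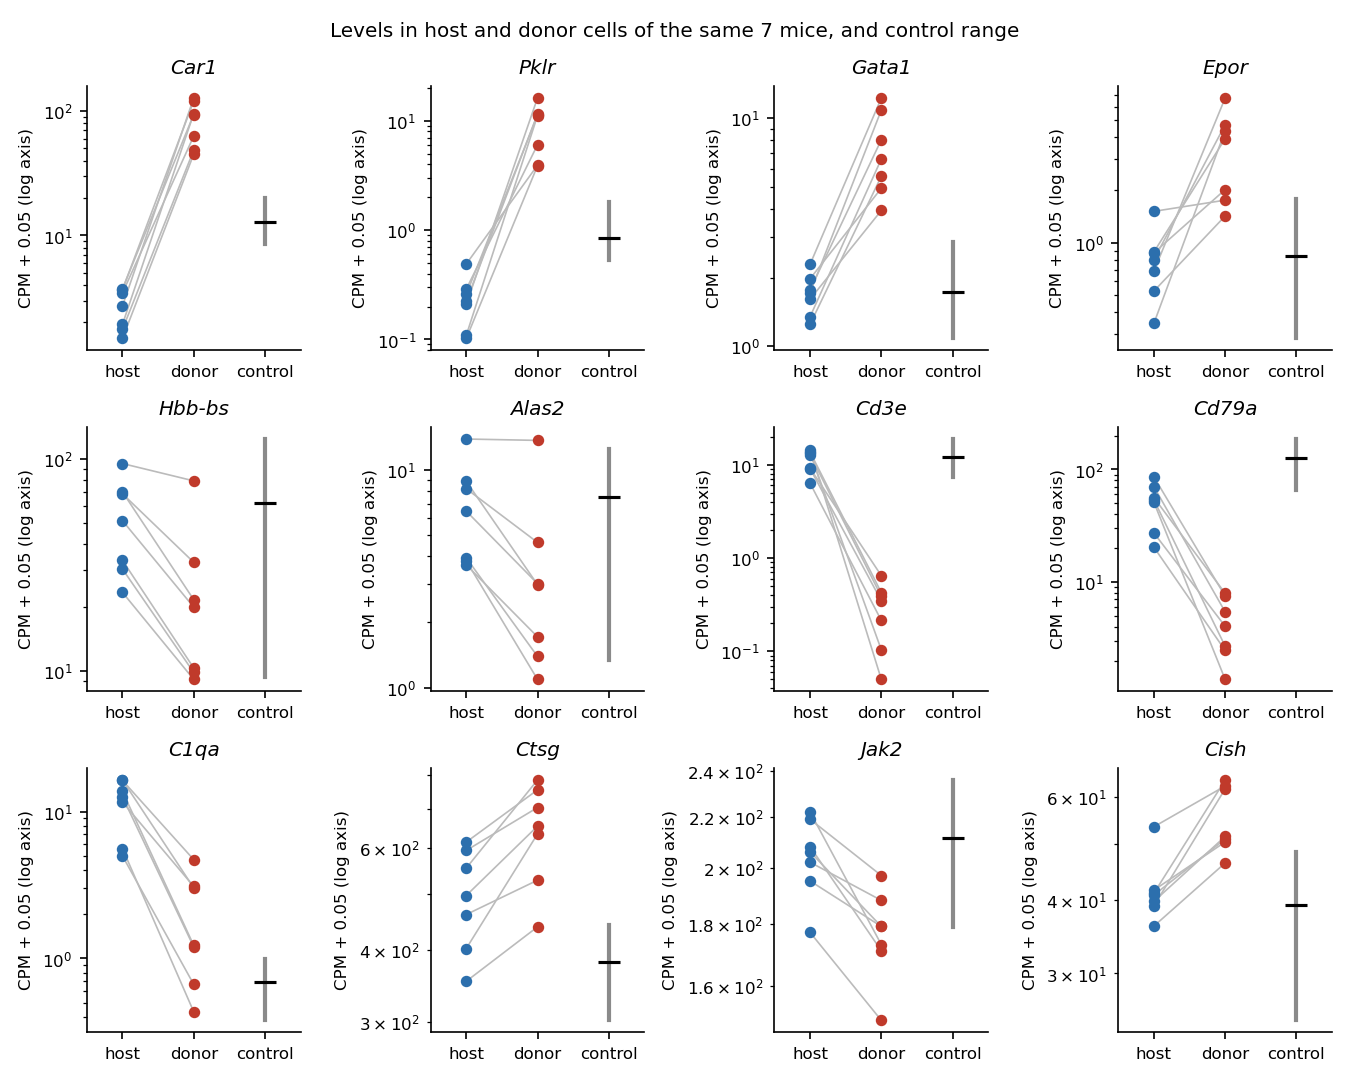
Levels of 12 genes in host and donor cells (y axis, CPM + 0.05 on a log axis). Points are libraries, grey lines join the 2 libraries of a mouse, and the grey bar and black tick give the range and median of 8 untransplanted controls. Car1, Pklr and Gata1 lie higher in each donor library than in every host library, Hbb-bs falls within each mouse from overlapping ranges, and Jak2 changes little.

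Primary-granule genes of neutrophils were higher in donor cells by small amounts. Of 8 primary-granule genes tested 7 were higher and 0 lower (median 0.32). Ctsg (cathepsin G) was 438 to 784 CPM in donor and 353 to 613 CPM in host cells, higher in 7 of 7 mice by 1.15 to 1.57 times (log2 0.34 ± 0.05 SE, edgeR adjusted p = 5.99e-05). Prtn3 (0.36), Ms4a3 (0.39) and Prss57 (0.39) rose by similar amounts. Without the block 1 of the 8 passed, and Ctsg, Prtn3 and Ms4a3 did not (adjusted p = 0.126, 0.125 and 0.0746), and above 1.2-fold 2 did. Of 12 secondary-granule genes, 3 were higher (Fcnb, Hp and Cd177, at 0.24, 0.21 and 0.27), beside 15.3% of all genes tested. The count was 6 without N005, 7 without N269, 10 with no filter on low counts, and 0 without the block or above 1.2-fold. Olfm4, a protein made by a subset of neutrophils, was lower (-0.94, adjusted p = 4.07e-05), at 66.4 to 210 CPM against 119 to 382. Without the block Olfm4 did not pass (edgeR adjusted p = 0.0629). No mature neutrophil gene of 19 passed in either direction, S100a8 at 0.15 (edgeR adjusted p = 0.13) and S100a9 at 0.13 (0.257) included. At an unadjusted p below 0.05, 1 of the 19 differed (0 higher, 1 lower). DESeq2 and limma-voom also gave 0, but with no filter on low counts 8 of the 19 passed as higher. Without N005 or without N269, 3 of the 19 passed as higher, and without N032 or N203 1 passed as lower.

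Basophil and mast-cell genes were higher for 6 of 10 tested and lower for 0 (median 0.55, 2 more listed and too low to test). Mcpt8, a basophil protease, was 119 to 376 CPM in donor and 76.1 to 201 CPM in host cells, higher in 7 of 7 mice (log2 0.85 ± 0.14 SE, edgeR adjusted p = 0.00435). Prss34 (0.71), Cpa3 (0.61) and Gata2 (0.50) were also higher. The count was 3 without the block. Of 9 eosinophil genes 3 were higher (Alox15 0.48, Epx 0.38 and Siglecf 0.19), and that count went to 0 without N005, N032 or N203, to 1 without N204, to 5 without N279, and to 0 without the block or above 1.2-fold. Il5ra, the interleukin-5 receptor chain that eosinophils use, was lower (-1.55), as was Ear2 (-0.43). Above 1.2-fold 1 of these 2 passed. Megakaryocyte genes showed no common direction, with 2 higher, Selp (0.63) and Itga2b (0.28), and 2 lower, among them Itgb3 (-0.37), of 10 tested. The eosinophil and megakaryocyte counts stand beside 15.3% higher and 18.5% lower of all genes tested. Itga2b did not pass without N005, N014, N032, N203 or N204, and no member of the list passed without the block or above 1.2-fold. Pf4, the platelet chemokine, was 3.23 to 9.72 CPM in donor and 3.71 to 10.2 CPM in host cells and did not pass (adjusted p = 0.721).

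Stem and progenitor genes were split, with 4 higher and 4 lower of 18, beside 15.3% higher and 18.5% lower of all genes tested. The higher ones were Hoxa9 (0.38), Cdk6 (0.18), Gfi1 (0.17) and Kit (0.16), and none of the list passed as higher without the block or above 1.2-fold, and 1 did on the deposited TPM values. Ly6a, which encodes the Sca-1 antigen of stem cells and of some lymphocytes, was 1.32 to 3.17 CPM in donor and 3.83 to 8.95 CPM in host cells without overlap (log2 -1.50 ± 0.12 SE, edgeR adjusted p = 5.02e-08). Flt3, the receptor of lymphoid-primed progenitors and dendritic precursors, was lower by 0.77 on the log2 scale, and Sox4 (-0.46) and Procr (-0.58) were lower too. The T- and B-cell lists were lower in the same libraries, and their part in the Ly6a difference was not tested.

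Monocyte and macrophage genes were lower in donor cells. Of 17 monocyte genes 11 were lower and 1 higher (Spn, 0.17), with a median of -0.29, and 7 were lower without N269 or without N279, 5 without the block and 3 above 1.2-fold. As higher, 0 passed without the block or above 1.2-fold. Cd300e, a receptor of non-classical monocytes, was 0.602 to 3.76 CPM in donor and 5.56 to 18.7 CPM in host cells (log2 -3.04 ± 0.26 SE, edgeR adjusted p = 2.53e-05). Nr4a1 (-0.39) and Ms4a4c (-0.29) were lower by less, and Vcan did not pass (0.08, adjusted p = 0.498). Of 13 macrophage genes tested of 17 listed, 7 were lower and 2 higher, and 4 met the minimum count in host cells alone. C1qc, a chain of complement C1q, was 0.493 to 4.40 CPM in donor and 6.11 to 18.7 CPM in host cells (-2.96, adjusted p = 2.66e-06). C1qa was 0.384 to 4.67 CPM in donor and 4.95 to 16.4 CPM in host cells, and in controls it was 0.329 to 0.946 CPM, below every host library. Cd5l, a protein secreted by macrophages, was lower as well (-2.67). Vcam1 (0.27) and the iron exporter Slc40a1 (0.17) were the higher members, and 1 member passed as higher without N203 or N204 and 0 without the block or above 1.2-fold.

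All 12 tested dendritic-cell genes were lower, with a median of -0.98, as were all 10 MHC class II genes, with a median of -1.06. Without the block 7 of the 12 dendritic-cell genes were lower, and above 1.2-fold 7 were. Ly6d (-2.36), Ccr9 (-1.63) and Cox6a2 (-1.54), members of the dendritic-cell list, did not overlap between donor and host libraries. Of all 13662 genes tested, 544 passed as lower without overlap. H2-Ob, an MHC class II chaperone subunit of B cells, was 4.11 to 9.49 CPM in donor and 15.7 to 61.9 CPM in host cells (log2 -2.35 ± 0.12 SE, edgeR adjusted p = 4.74e-08). Ciita, the master activator of MHC class II, was lower by less (-1.02). B cells carry MHC class II as well. The part of the lower B- and T-cell lists in the MHC class II and dendritic-cell differences was not tested.

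Lymphoid genes gave the largest differences in size. Of 11 early B-cell genes 11 were lower, of 18 mature B-cell genes 18, of 24 T-cell genes 24, of 15 plasma-cell genes 14 and of 15 NK and cytotoxic genes 14. Medians were -3.39, -3.60, -3.56, -4.73 and -2.51 in that order. Many members met the minimum count in host cells alone (6, 7, 16, 8 and 7), so these counts describe the fractions and were partly fixed by the filter on low counts. Cd79a, the B-cell receptor signalling chain, was 1.31 to 7.87 CPM in donor and 20.4 to 85.7 CPM in host cells (log2 -3.60 ± 0.28 SE, edgeR adjusted p = 0.000106). Cd3e, of the T-cell receptor complex, was 0 to 0.597 CPM in donor and 6.28 to 14.3 CPM in host cells, or 31 against 1423 counts in all. Ms4a1 (-4.60), Bcl11b (-4.89), Trbc2 (-5.20) and Jchain (-5.36) had no overlap either. All of the 12 lowest genes named by the rule belonged to the plasma-cell and T-cell lists except Dtx1 (-5.07), a gene of the Notch pathway. The lowest was Ighg3, an antibody heavy chain, with 8 counts over the 7 donor libraries, 5 of them at 0, and 1541 over the host libraries (-7.44). Single immunoglobulin and T-cell-receptor constant genes have near-identical relatives, and their separate values are uncertain. Nkg7, which encodes a protein of cytotoxic granules, was the only NK-list member that was higher (0.22). Without the block or above 1.2-fold 0 members of that list passed as higher.

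Summed over each list, donor cells held 9.6% to 23.8% of the T-cell RNA of their own host, 7.6% to 18.5% of the mature B-cell RNA and 11.4% to 30.9% of the plasma-cell RNA. N269, with the lowest chimerism (0.63), had the highest T-cell share, and N279, with the next lowest (0.7), had the lowest. The NK and cytotoxic share was 40.8% to 67.3%. Such sums are carried by the members with the most RNA. The median member was lower by more than the sum in the NK and cytotoxic list (log2 -2.51), the plasma-cell list (-4.73) and the T-cell list (-3.56). Globin RNA was 31.8% to 80.3% of the host level, with N032 the highest, and RNA of the enzymes and late erythroid list was 127% to 192%. The membrane list was above 100% in 6 of 7 mice and at 96.1% in N204.

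**Figure D4:**
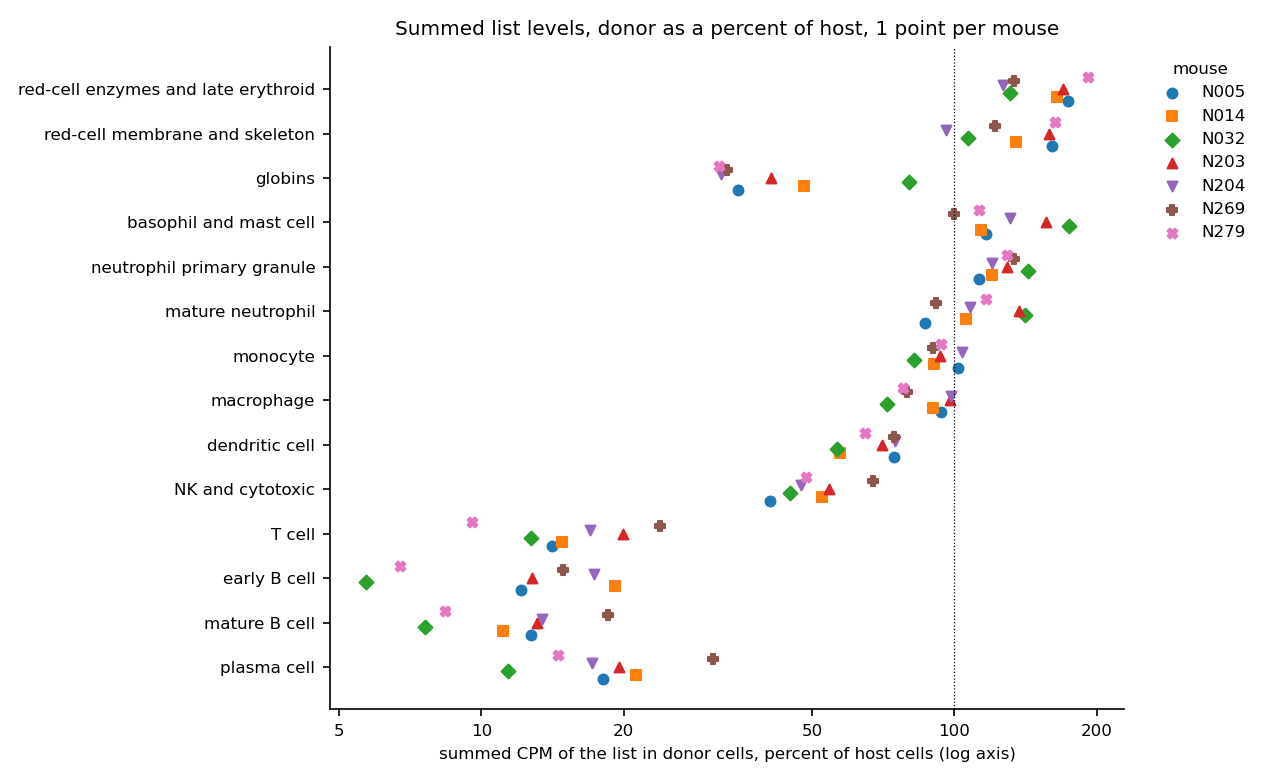
Summed CPM of 14 gene lists in donor cells as a percent of the host cells of the same mouse (x axis, log scale), with 1 point per mouse and the lists on the y axis. The T-cell, B-cell and plasma-cell lists lie between 5.7% and 30.9% in all 7 mice, the red-cell enzymes and late erythroid list at 127% to 192%, and globins at 31.8% to 80.3%.

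Jak2 RNA was slightly lower in the mutant cells, at 150 to 197 CPM (median 179) against 177 to 222 CPM (median 206) in host cells. It was lower in 7 of 7 mice, at 0.782 to 0.93 of the host level (log2 -0.25 ± 0.04 SE, edgeR adjusted p = 7.82e-05), and gene counts do not separate the mutant from the normal allele. Ptprc, the gene of CD45 on which cells were sorted, was also lower (-0.24, adjusted p = 0.000558). Neither gene passed when a difference above 1.2-fold was required, and Ptprc did not pass without the mouse as a block (0.145). Of the 50 tested neighbours of Ptprc in the gene order of GRCm38.p6 23 passed, and of the 50 neighbours of Jak2 23 passed, 46% each beside 33.8% of all genes, with medians of -0.06 and -0.05.

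Receptors that use JAK2 did not move together: of 12 tested, 2 were higher and 6 lower, beside 15.3% higher and 18.5% lower of all genes tested. After Epor the higher one was Csf2rb (0.18, named after its value was seen), the shared chain of the interleukin-3, interleukin-5 and GM-CSF receptors. Il5ra, Il6st (-0.47) and Ifngr1 (-0.19) were among the lower. Without the block 1 was higher and 3 lower, and above 1.2-fold 1 and 2. Of 11 JAK kinases and STATs 6 were lower and 0 higher, with Stat4 (-0.53), a lymphoid STAT, Stat2 (-0.31) and Jak1 (-0.20) beside Jak2. Stat5a (-0.04, adjusted p = 0.485) and Stat5b (-0.10, adjusted p = 0.0747), the STATs downstream of the erythropoietin receptor, did not pass. Without the block 3 of the 11 were lower, and above 1.2-fold 1 was.

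Among 19 feedback regulators and targets of JAK-STAT signalling, 2 were higher, Cish and Id1, and 10 lower, with a median of -0.16. Cish, a feedback inhibitor induced by STAT5, was 46.3 to 64.2 CPM in donor and 36.1 to 53.4 CPM in host cells. The ranges overlapped through the host library of N014, and all 7 pairs had 1.17 to 1.58 times more in donor cells (log2 0.37 ± 0.05 SE, edgeR adjusted p = 4.18e-05). Socs2, another STAT5 target, was lower (-0.66, adjusted p = 0.00848) in 6 of 7 mice and did not pass without the mouse as a block (0.0914). Pim2 (-0.59), Ccnd1 (-0.68), Ccnd2 (-0.30) and Pim1 (-0.16) were lower. Pim1 did not pass without the block (0.221), nor did Ccnd1 (0.0713) or Ccnd2 (0.168). In all, 1 member was higher and 3 lower without the block, and 0 and 3 above 1.2-fold.

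Most of the listed cell-cycle genes were higher in donor cells, all by small amounts. Of 28 DNA-replication genes 23 were higher and 0 lower (median 0.21), and of 23 mitosis genes 18 were higher and 1, Cenpa, lower (median 0.20). Cenpa passed in none of the fits without N005, N014, N032, N203, N269 or N279, and not without the block. Mcm2, a subunit of the replicative helicase, was 155 to 181 CPM in donor and 121 to 151 CPM in host cells without overlap (log2 0.25 ± 0.03 SE, edgeR adjusted p = 3.51e-05). Chaf1a (0.26), Rrm1 (0.24), Cdk1 (0.23) and Kif20a (0.35) were higher in 7 of 7 mice. Above 1.2-fold 0 genes of either list passed, and without the block 7 mitosis genes were higher. Glycolysis genes were higher for 11 of 18 and lower for 0, led by Pfkm (0.81, adjusted p = 5.81e-07), a phosphofructokinase read at 11.2 to 20.5 CPM in donor and 5.69 to 10.8 CPM in host cells. Nuclear genes of oxidative phosphorylation were higher for 34 of 75 and lower for 0 (median 0.12). In male mice alone 19 were higher, and in female mice alone 12. Without the block 7 of these and 3 glycolysis genes passed, and above 1.2-fold 0 and 1. Cytosolic ribosomal proteins stayed near 0, with 1 higher and 1 lower of 76, though 6 were lower without N269 and 4 under upper-quartile scaling. Without the block 0 were higher and 1 lower, and above 1.2-fold 0 passed.

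Of the inflammatory genes that passed, most were lower. Of 29 type I interferon response genes 13 were lower and 1 higher (median -0.25), with Oasl1 (-0.75), Bst2 (-0.36) and Ifi204 (-0.35) lower in 7 of 7 mice. The higher one was Ifi27 (0.20), and none passed as higher without N014, N032, N203 or N279, without the block or above 1.2-fold. Without the block 6 were lower, and above 1.2-fold 4 were. Of 20 NF-kB genes 8 were lower and 1 higher. Tnfaip3, which restrains NF-kB, was 147 to 258 CPM in donor and 210 to 392 CPM in host cells (log2 -0.61 ± 0.04 SE, edgeR adjusted p = 2.96e-08), and Icam1 (-0.35) and Relb (-0.24) were lower. Il6 was the higher one (0.49). No member passed as higher without N005, N014, N203 or N204, and 2 did without N269. The list had 5 higher and 7 lower with no filter on low counts, 0 and 1 without the block, and 0 and 2 above 1.2-fold. Il1b, an inflammatory cytokine of myeloid cells, was 127 to 402 CPM in donor and 158 to 460 CPM in host cells and did not pass (-0.09, adjusted p = 0.396).

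Of 7 stromal and endothelial genes tested 5 were lower, among them Kdr (-1.67) and Cxcl12 (-1.37), and both fractions held little of some of them. Without the block or above 1.2-fold 2 were lower. Cxcl12 was 0.329 to 1.88 CPM in donor and 0.479 to 3.58 CPM in host cells.

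Levels of the untransplanted controls were set beside both fractions. By mean log2(CPM + 0.5), controls lay nearer to host than to donor cells for 96.5% of the genes that were higher in donor cells and 86.2% of those that were lower, and for 68.2% of genes that did not pass. Controls lay between donor and host cells for 15.1% of the higher genes, 19.4% of the lower and 15.5% of those that did not pass, and beyond the host level for 84.1%, 73.3% and 59.3%. For the C1q genes and Cd300e the donor level was nearer the control level, Cd300e being 0.769 to 2.05 CPM in controls. Vcan was 80.0 to 230 CPM in donor, 73.9 to 173 CPM in host and 16.6 to 34.1 CPM in control cells, so both fractions of the transplanted mice lay above the controls. These placements were not tested.

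Whether the donor-host difference depended on sex was tested by an interaction term. Only 2 of 13662 genes passed (0.0146%), with 421 at an unadjusted p below 0.05. Amd2, an S-adenosylmethionine decarboxylase gene, was 9.07, 6.68, 8.53 and 5.71 CPM in the male donor libraries and 0.617, 0.877 and 0.914 CPM in the female ones. Host libraries held 0.366 to 0.769 CPM and controls of both sexes at most 1.01 CPM, so the male donor libraries stood alone (difference in log2 fold change, female minus male, -3.41 ± 0.49 SE, edgeR adjusted p = 0.0295). Its near copy Amd1 was 79.7 to 101 CPM in male and 96.3 to 106 CPM in female donor libraries, and reads shared by such copies make the Amd2 value uncertain. Lrmda, a gene of melanocyte differentiation, was 1.34, 0.656, 1.09 and 0.465 CPM in male donor libraries and 4.43, 3.78 and 4.25 CPM in female ones. Host libraries held 5.21 to 7.45 CPM and controls 5.32 to 6.96 CPM (difference 2.18 ± 0.26 SE, adjusted p = 0.00608). Lrmda did not pass without N014 (0.0539) or N279 (0.0632). Amd2 did not pass without N005 (0.0874), N014 (0.138), N204 (0.18), N269 (0.056) or N279 (0.301). Sex of the mouse and sex of its donor were matched and cannot be told apart here, nor can any other difference between the male and female donors. Whether mice of one sex shared a donor is not given, and the fit treats their donor libraries as separate. The next smallest p-values, which did not pass, belonged to Slc4a1 (-0.91, adjusted p = 0.377), Gimap4 (-1.44, 0.377) and Gm1821 (3.34, 0.592).

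**Figure D5:**
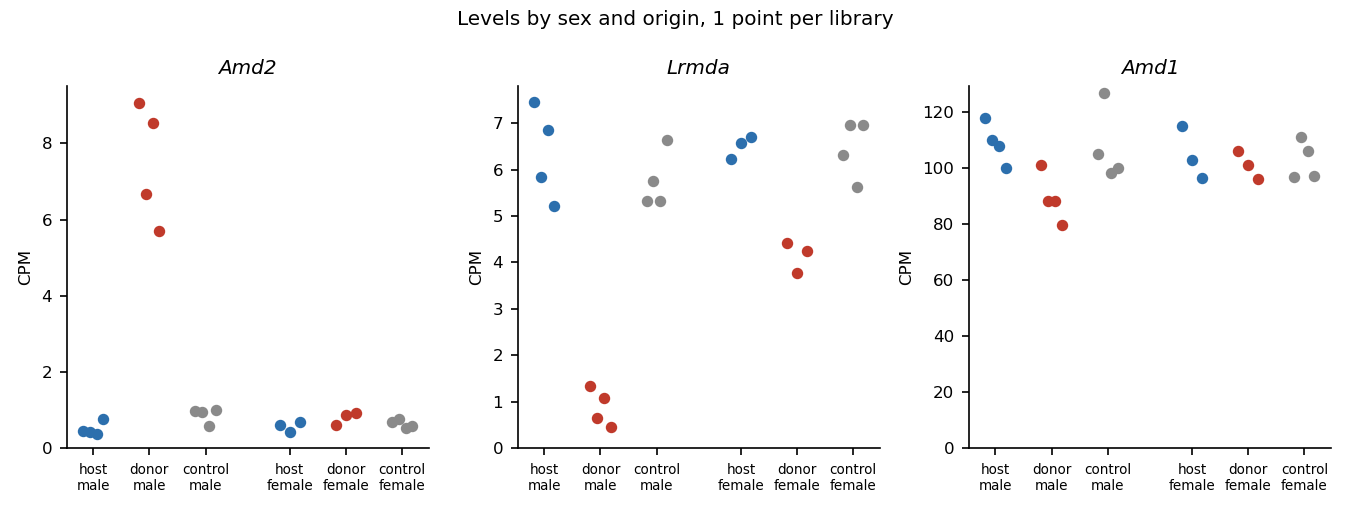
CPM of Amd2, Lrmda and Amd1 (y axes, from 0) in host, donor and control libraries of each sex (x axis), with 1 point per library. The 4 male donor libraries are at 5.71 to 9.07 CPM for Amd2 and 0.465 to 1.34 CPM for Lrmda, apart from all other libraries, while Amd1 overlaps between the groups.

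No gene passed for a dependence of the donor-host difference on blood chimerism (0 of 13662, 0%, in edgeR with log2 chimerism, with 789 at an unadjusted p below 0.05, and 0 in limma-voom). The smallest p-values belonged to Ighv9-3 (2.36 per doubling, adjusted p = 0.365), Platr17 (1.47, 0.365), Igkv4-61 (3.98, 0.365), Igkv15-103 (-2.76, 0.745) and Dapk3 (-0.20, 0.781). The 3 antibody segments among them were read at 0 to 1.57 CPM in donor cells. With 7 mice, of which the 3 females include both chimerism values below 1, sex and chimerism overlap in part.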

How the data were processed

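Polyadenylated RNA of CD45-sorted marrow cells was sequenced as strand-specific paired-end libraries, per the labels' protocols. The submitters' processing notes name STAR 2.7.3a, featureCounts in Subread 1.6.2 and the build GRCm39. Annotation and strand setting are not given in the sources used here. The deposited counts are whole and not normalized, and the deposited TPM values, whose tool is not stated, served as an alternative. Of 56941 identifiers 51948 matched a symbol.

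Genes kept by filterByExpr (at least 0.553 CPM in 7 libraries, with its total-count rule) were scaled by TMM and tested with edgeR 4.0.16 (R 4.3.3; quasi-likelihood F-test, robust, mouse as a block, Benjamini-Hochberg over all 13662 genes). Printed CPM were scaled over the 22 CD45 libraries. Donor and host libraries of one animal deviated together from their group means (r across genes 0.175 to 0.6 in 7 mice). Libraries of one group differed by at least 10.4 times counting noise (chi-square per degree of freedom). The recipient mice were separate animals per the labels, and whether any of them shared a donor is not given. Fits were also tried on simulated counts, whose differences were larger than most of the calls here. That trial does not speak for the small differences.

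Named genes were the 12 highest and 12 lowest log2 fold changes past the threshold whose average log2 CPM reached 2 and whose direction was shared by 7 mice, passing over unnamed models and antigen-receptor segments; up to 4 members per list with the smallest p; 17 fixed genes; and 5 per interaction. Kdm5d, Uty, Gfi1b, Ldb1, Rhag, Trim10, Bpgm, Epb42, Dmtn, Cpox, Alox15, Hoxa9, Cdk6, Gfi1, Kit, Cenpa, Slc40a1, Nkg7, Csf2rb, Stat5a, Stat5b, Id1, Ifi27, Il6 and Amd1 fall outside this rule and were chosen after their values were seen. Members, lists and rules were chosen with earlier results of these data known. Alternatives were no block, DESeq2 1.42.0, limma 3.58.1 (voom, or trend on log2 TPM plus 1 or 0.1), other scalings, other filters, a 1.2-fold minimum, the sexes fitted separately, and fits lacking 1 mouse. Single members of 2 lists are not reported here.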

Additional observations from a re-analysis of the deposited data

Results flagged for a closer look

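The donor-host difference of Amd2 differed between the sexes by -3.41 and that of Lrmda by 2.18 (log2 fold change, female minus male), both past the threshold of the interaction test.

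Among 38 genes in 3 groups (114 groups of values), 10 groups held 1 library far from the rest by Dixon's criterion, where chance alone flags about 1 in 20. In donor cells these were Myh10 in N279 (27.1 CPM, others 2.30 to 9.78), Igha in N204 (22.5 CPM, others 1.5 to 9.98) and Ighg3 in N005 (0.376 CPM, others 0 to 0.0664). In host cells they were Cish in N014 (53.4 CPM, others 36.1 to 41.6) and, in N269, S100a8 (11900 CPM, others 3900 to 7200) and S100a9 (23000 CPM, others 7320 to 14100). In controls they were Pklr in N288 (1.75 CPM), Aqp1 in N002 (22.6 CPM), Ighg2c in N277 (143 CPM) and Vcan in N093 (34.1 CPM).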

How the results depend on the processing

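Of 149 genes named by the rule, 2792 of 2975 alternative values kept their direction and side of the threshold, 161 no longer passed, 18 newly passed and 4 changed sign. The sign changes were in genes that did not pass: Il1b in male mice (0.0284), and Pf4 in male mice (0.187) and on leaving out mice, where it ran from -0.1454 to 0.02447 and was above 0 without N204 or N279. No paired replicate block left 1792 calls of 4620 (503 higher, 1289 lower), and 1791 of these were shared. TPM plus 1 gave 2747 (1069 higher, 1678 lower), TPM plus 0.1 gave 2768 (1083 and 1685), a minimum of 1.2-fold 1196 (161 and 1035), and the 3 female mice alone 1855 (577 and 1278). Leaving out each mouse gave 3676 to 4601 calls. For sex, limma-voom and the stricter filter left 1 call each, with 0 in the negative direction, and leaving out each mouse gave 0 to 8 (0 to 2 positive, 0 to 7 negative). For chimerism, leaving out each mouse gave 0 to 1. S100a8 passed without N005 (adjusted p = 0.0377) or N269 (0.0313), and with no filter S100a8 (0.17) and S100a9 (0.15) passed. The causes were not tested. Depth limits genes read below about 1 CPM, such as Pklr in host cells and T-cell genes in donor cells.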
